A study of Mus musculus with 2 samples.

Results

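The 43 genes described here encode ribosome biogenesis factors, proteins that make and assemble ribosomes but are mostly not part of the finished ribosome. They were taken by symbol from the 28625 gene symbols of the deposited single-cell count matrices. All 43 were found, and all are annotated as protein-coding genes, spread over 17 chromosomes (GRCm38). Those the results turn on most are Npm1 at chr11:33152287-33163206 (minus strand), Ncl at chr1:86344719-86359400 (minus strand), Nhp2 at chr11:51619735-51623714 (plus strand) and Nop10 at chr2:112261926-112263269 (plus strand). They fall into 5 nucleolar chaperones and helicases, 3 RNA polymerase I subunits, 4 box C/D snoRNP and U3 proteins, 4 box H/ACA snoRNP proteins, 10 small subunit assembly factors and 17 large subunit assembly factors.

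Ribosomes are made mainly in the nucleolus, where RNA polymerase I transcribes the ribosomal RNA precursor. Small nucleolar RNPs modify that precursor: box C/D particles guide ribose methylation and box H/ACA particles guide pseudouridylation. Assembly factors then cleave, fold and export the pre-ribosomal particles, and cells that are about to grow or divide are known to raise this output.

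The libraries were 10x 3′ v2 single-cell RNA libraries from protease-digested tibialis anterior muscle of C57B/6 mice aged 12 weeks, 1 from muscle 1 day after injury and 1 from uninjured control muscle. The injury was an intramuscular injection of 1.2% BaCl. The treatment text is the same on both samples, so whether the uninjured muscle received an injection is not given. With 1 library per condition there is no replicate, so no test of the conditions was possible. Intervals are 95% intervals that cover counting error only, and a gene was called higher or lower when the 2 libraries differed at least 2-fold. Where a library held under 3 UMIs of a gene, it was set to a floor of 3 UMIs for the call, but never past equal levels.

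The injured library held 4489 barcodes and 39014762 UMIs (unique molecular identifiers, counted transcripts), and the uninjured library 5581 barcodes and 22994502 UMIs. After filters 4260 injured and 5136 uninjured cells were kept, with a median of 7274 and 3166 UMIs. The libraries shared 33 barcodes. The Y-linked transcripts Ddx3y, Eif2s3y, Kdm5d and Uty had 4445 UMIs in the injured library and 0 in the uninjured one, while Xist had 0 UMIs in the injured library and 16538 in the uninjured one. Injury therefore cannot be told apart from the sex of the animals or from the library, and this holds for every ratio below. Cell classes were rebuilt here by clustering without the 43 genes and are called "-like" after their markers. No deposited cell annotation was used.

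The factors were higher in the injured library in every class compared. Summed over the 43 genes, fibro/adipogenic progenitor-like (FAP-like) cells had 8887 counts scaled to 1000000 UMIs (CPM; 95% interval 8814 to 8960) in the injured library and 1616 CPM (1572 to 1660) in the uninjured library, a ratio of 5.50 (5.35 to 5.66). FAPs are the resident mesenchymal progenitors of muscle. Glial-like cells had 8827 CPM injured and 1777 CPM uninjured, a ratio of 4.97 (4.66 to 5.30). Endothelial-like cells had 5760 CPM injured and 1746 CPM uninjured, a ratio of 3.30 (3.23 to 3.37). These 3 classes reached between 3 and 6 times their uninjured level.

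Tenocyte-like cells, the fibroblasts of tendon, had 5266 CPM injured and 1585 CPM uninjured, a ratio of 3.32 (3.20 to 3.45). Pericyte and smooth muscle-like cells, which wrap blood vessels, had 4828 CPM injured and 1957 CPM uninjured, a ratio of 2.47 (2.29 to 2.66). Monocyte and macrophage-like cells had 2862 CPM injured and 1450 CPM uninjured, a ratio of 1.97 (1.80 to 2.17). The smallest ratio was that of dendritic-like cells, at 3188 CPM injured and 2151 CPM uninjured, or 1.48 (1.36 to 1.61). All 7 intervals lay above 1. FAP-like and glial-like levels overlapped in their intervals in the injured library, and below them endothelial-like, tenocyte-like, pericyte and smooth muscle-like, dendritic-like and monocyte and macrophage-like cells followed in that order without overlap.

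**Figure D1:**
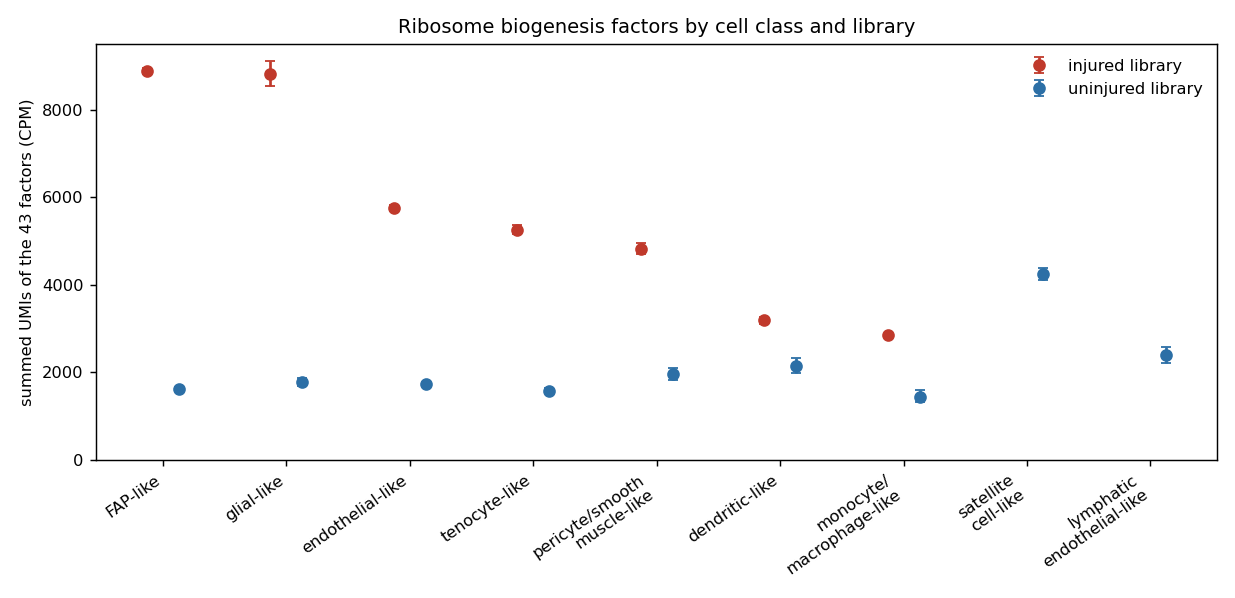
Summed level of the 43 factors (y axis, CPM) in each cell class (x axis), with the injured library in red on the left and the uninjured library in blue on the right; bars are 95% Poisson intervals and cover counting error only. The injured points run from 2862 CPM in monocyte and macrophage-like cells to 8887 CPM in FAP-like cells, and the highest uninjured point is that of satellite cell-like cells at 4245 CPM.

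Barcodes with under 200 genes, which were almost pure haemoglobin (96.0% of UMIs injured and 96.6% uninjured), gave the factor level of droplets made up of red cell RNA. They held 12 factor UMIs in 64 injured barcodes and 9 factor UMIs in 178 uninjured barcodes. That is 36.8 CPM injured and 7.57 CPM uninjured of all UMIs, and 926 CPM injured and 223 CPM uninjured of the UMIs other than haemoglobin.

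In FAP-like cells 41 of the 43 factors were at least 2-fold higher in the injured library and 0 were lower. Of the 11205 genes measured there (at least 20 UMIs over both libraries), 15.7% were at least 2-fold higher and 27.7% at least 2-fold lower. The median log2 ratio was 2.41 over the factors and -0.24 over all genes measured. All 43 factors had an interval above 1. The 398 injured cells came almost wholly from 1 cluster led by Cxcl5, Aldh1a2 and Has1 (395 cells), while most of the 738 uninjured cells lay in a cluster led by Myoc, Smoc2 and Hmcn2 (492 cells), so the class was held by different clusters in the 2 libraries.

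Among the chaperones and helicases of FAP-like cells, Npm1 (nucleophosmin, a histone and ribosomal protein chaperone) had 2339 CPM injured and 320 CPM uninjured, a ratio of 7.32 (6.87 to 7.80). Ncl (nucleolin, which binds the ribosomal RNA precursor) had 1312 CPM injured and 167 CPM uninjured, a ratio of 7.84 (7.18 to 8.57). Ddx21, an RNA helicase of the nucleolus, had 255 CPM injured and 29.2 CPM uninjured, a ratio of 8.74 (7.09 to 10.9). Nolc1 and Mybbp1a completed the group at ratios of 6.17 and 4.995, so all 5 were at least 2-fold higher. Ncl and Npm1 together made up 41.1% of the factor UMIs in the injured FAP-like cells and 30.1% in the uninjured ones. Without this pair the summed ratio was 4.64 (4.48 to 4.80).

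In FAP-like cells the RNA polymerase I subunits had, summed, the lowest ratio of all roles, although Polr1a and Polr1b lay above single factors of other roles such as Nop10, Brix1 and Nob1. Polr1c, a subunit shared with RNA polymerase III, had 79.9 CPM injured and 43.02 CPM uninjured in FAP-like cells, a ratio of 1.86 (1.54 to 2.26). Polr1a, the largest catalytic subunit, had 20.01 CPM injured and 7.85 CPM uninjured, a ratio of 2.55 (1.65 to 4.08). Polr1b, the second-largest subunit, rested on 58 injured and 10 uninjured UMIs, a ratio of 2.87 (1.45 to 6.29). Summed, the 3 genes were at 2.02 (1.70 to 2.40), an interval that does not reach that of any other role group in these cells.

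The box C/D and U3 proteins were close to each other in FAP-like cells. Fbl (fibrillarin, the methyltransferase) had 360 CPM injured and 62.5 CPM uninjured, a ratio of 5.76 (4.98 to 6.69). Its core partners Nop56 and Nop58 had ratios of 5.73 and 6.22, and Rrp9, a U3-specific protein, 6.46. Their 4 intervals overlap.

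The 4 box H/ACA proteins, which form 1 particle, were far apart. Nhp2, a core RNA-binding subunit, had 578 CPM injured and 51.8 CPM uninjured in FAP-like cells, a ratio of 11.1 (9.54 to 13.1) and the highest of all 43 factors there. Nop10, its small partner subunit, had 376 CPM injured and 189 CPM uninjured, a ratio of 1.99 (1.82 to 2.18). Dkc1 (dyskerin, the pseudouridine synthase) and Gar1 lay between them at 5.13 and 5.46. In the uninjured FAP-like cells Nop10 had 603 UMIs and Nhp2 165, and in the injured ones Nop10 had 2426 and Nhp2 3724, so the order of their counts differed between the libraries.

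Nop10 was within 2-fold in all 7 classes, and passed 2-fold in FAP-like cells under scaling by size factors or by totals without haemoglobin, mitochondrial and ribosomal protein genes. It had 337 CPM injured and 207 CPM uninjured in endothelial-like cells, a ratio of 1.63 (1.52 to 1.75). In tenocyte-like cells the ratio was 1.21 (1.06 to 1.37), in pericyte and smooth muscle-like cells 0.944 (0.763 to 1.17) and in monocyte and macrophage-like cells 0.969 (0.758 to 1.26). Nhp2 was well above 2-fold in each of those 4 classes, at 6.36 (5.74 to 7.07), 6.95 (5.68 to 8.57), 5.46 (3.55 to 8.82) and 3.64 (2.27 to 6.26) in the same order. The intervals of these 2 partners overlapped in none of the 5 classes, nor in glial-like cells. In dendritic-like cells they did overlap. There Nhp2 was within 2-fold, at 1.76 (1.24 to 2.57), and Nop10 stood at 1.19 (0.904 to 1.60).

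All 10 small subunit assembly factors were at least 2-fold higher in FAP-like cells, with a summed ratio of 3.37 (3.06 to 3.72). Wdr43, a UTP-A complex protein and the most counted of them, had 105 CPM injured and 38.6 CPM uninjured, a ratio of 2.72 (2.24 to 3.32). Rrp12 and Bysl, which act on late pre-40S particles, had ratios of 6.77 and 5.76, and Nob1, the nuclease of the last 18S cleavage, had the lowest of the group at 2.27 (1.75 to 2.97).

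All 17 large subunit assembly factors were also at least 2-fold higher, with a summed ratio of 4.81 (4.54 to 5.11). Noc2l had 112 CPM injured and 11.6 CPM uninjured, a ratio of 9.61 (6.91 to 13.8). Ebna1bp2, a factor of early pre-60S particles and the most counted of the group, had 312 CPM injured and 60.9 CPM uninjured, a ratio of 5.11 (4.41 to 5.96). Brix1 was lowest at 73.2 CPM injured and 36.4 CPM uninjured, a ratio of 2.01 (1.64 to 2.48). The PeBoW complex, which processes the 32S precursor, was spread out: Wdr12 stood at 8.20, Bop1 at 6.15 and Pes1 at 3.39 (2.60 to 4.51).

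**Figure D2:**
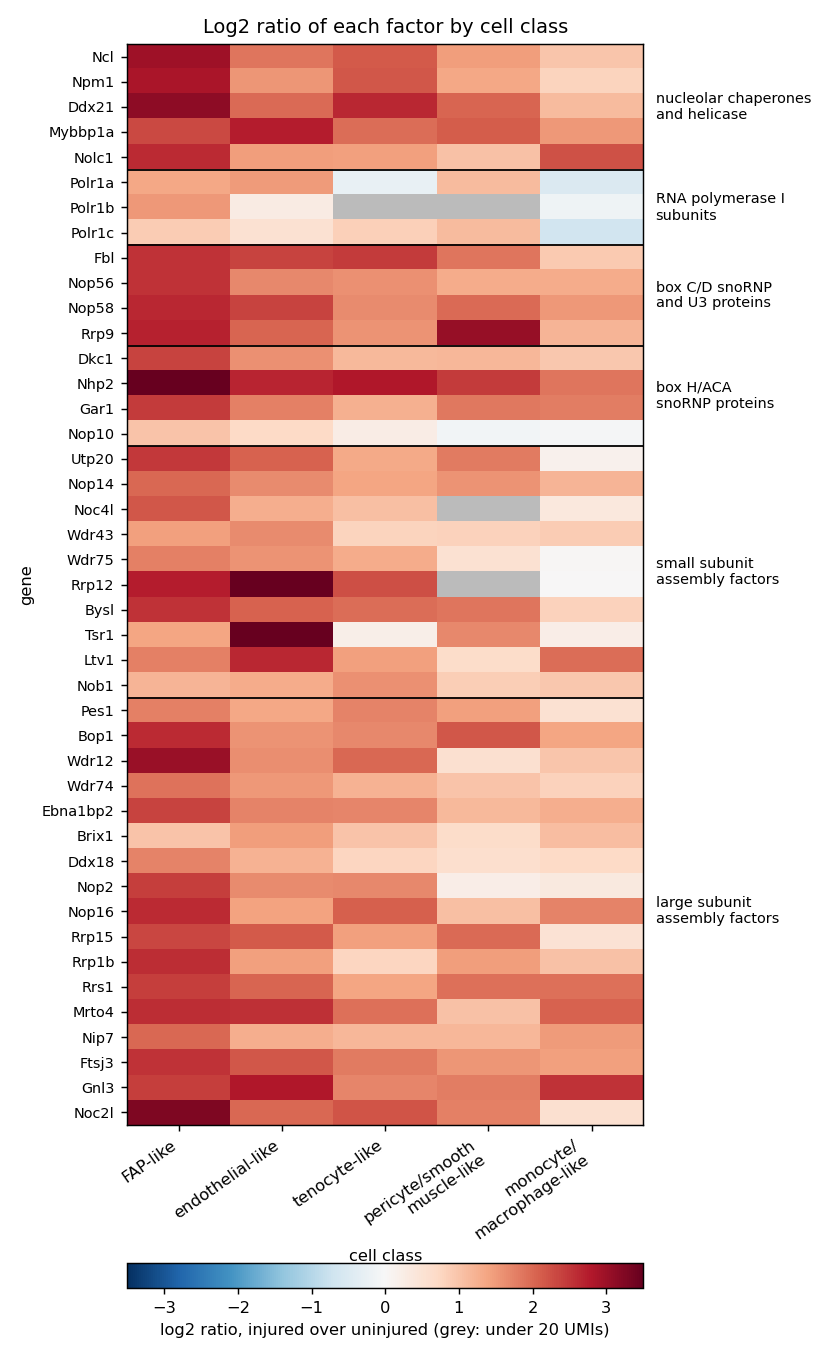
Log2 ratio of injured over uninjured CPM for each factor (rows, grouped by role) in the 5 main cell classes (columns); red is higher in the injured library, blue lower, and grey marks factors with under 20 UMIs. The FAP-like column is darkest, Nop10 is pale across the row, and the monocyte and macrophage-like column is palest, with no cell past 2-fold lower.

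Summed, the genes for proteins of the finished ribosome had a lower ratio than the 43 factors in FAP-like and monocyte and macrophage-like cells. Not every role group lay above them, since the FAP-like RNA polymerase I interval (1.70 to 2.40) holds the ribosomal protein value. In pericyte and smooth muscle-like cells the ribosomal protein genes stood at 2.24 (2.21 to 2.26) and the factors at 2.47 (2.29 to 2.66). The box H/ACA group stood at 1.87 there and the small subunit group at 2.15. In FAP-like cells the 76 cytosolic ribosomal protein genes had a summed ratio of 1.95 (1.94 to 1.96), with 38 at least 2-fold higher and a median log2 ratio of 1.02. In monocyte and macrophage-like cells their summed ratio was 0.985 (0.976 to 0.993), with 1 gene at least 2-fold higher. The 86 other genes of the pathway on the fixed lists had 55 at least 2-fold higher and 0 lower in FAP-like cells, with a median log2 ratio of 1.24. The 37 other small subunit factors had 28 higher and the 12 other RNA polymerase I genes had 4 higher, so polymerase I genes outside the 43 also had the smaller share.

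**Figure D3:**
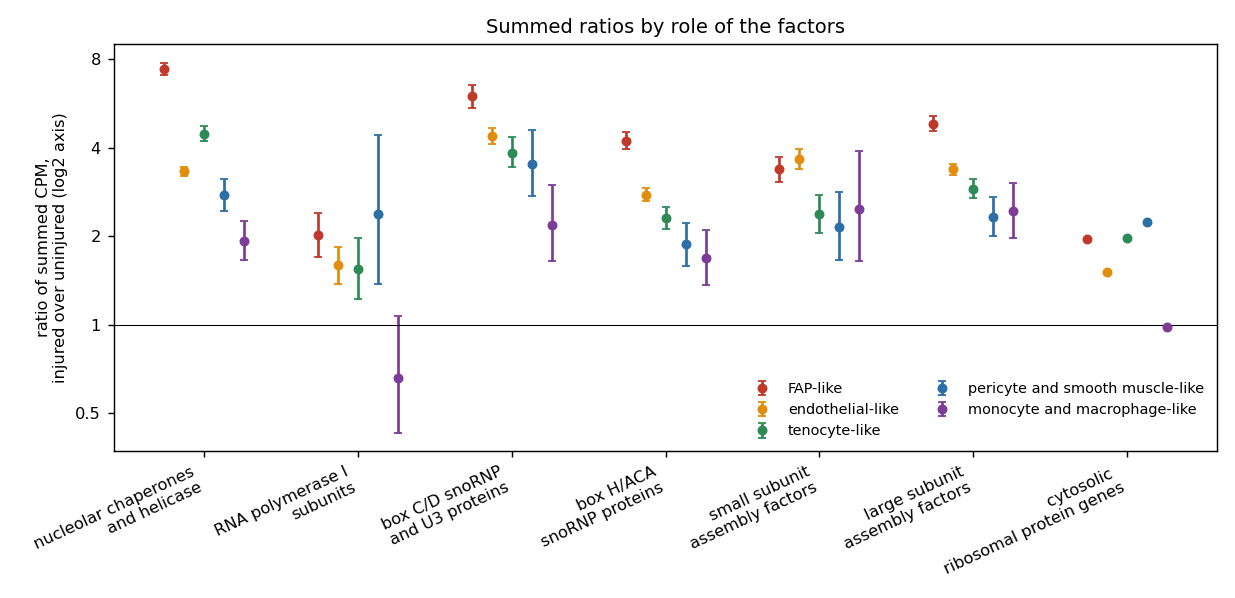
Ratio of summed CPM, injured over uninjured (y axis, log2 scale), for each role of the factors and for cytosolic ribosomal protein genes (x axis), in the 5 main cell classes (colours); bars are 95% intervals for counting error. In FAP-like cells the ratio runs from 2.02 for RNA polymerase I subunits to 7.42 for nucleolar chaperones and helicases, and ribosomal protein genes stand at 1.95.

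In endothelial-like cells 40 of 43 factors were at least 2-fold higher and 0 lower, whereas of the 11262 genes measured 10.8% were higher and 19.8% lower. The median log2 ratio was 1.67 over the factors and -0.19 over all genes measured. The highest ratios belonged to Tsr1, a pre-40S factor, with 29.9 CPM injured and 2.53 CPM uninjured (11.8, 7.50 to 19.4), and to Rrp12, with 11.5 CPM injured and 0.988 CPM uninjured (11.6, 5.58 to 27.1). Gnl3 (nucleostemin, a nucleolar GTPase) followed with 128 CPM injured and 18.2 CPM uninjured, a ratio of 7.04 (5.89 to 8.44). The 3 factors within 2-fold were Polr1b, Polr1c and Nop10, and Polr1b was at least 2-fold lower (log2 -1.13) when each cell was classed by its own marker score.

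The 460 injured endothelial-like cells came mostly from a cluster led by Pgf, Apln and Sh2d5 (403 cells), which held 44 uninjured cells. Within that cluster the summed level was 6142 CPM injured and 2558 CPM uninjured, a ratio of 2.40 (2.18 to 2.65), and 31 of 43 factors were at least 2-fold higher, against 7.27% of the 8732 genes measured in it. Some smaller clusters had cells of both libraries as well. A cluster led by Gkn3 and Gja5 had 2462 CPM in 27 injured cells and 1712 CPM in 415 uninjured cells. A cluster led by Selp, Plvap and Ackr1 had 3307 CPM in 20 injured cells and 1841 CPM in 360 uninjured cells. The Pgf and Apln cluster had the highest factor level of the 3 in both libraries.

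In tenocyte-like cells 34 of the 42 factors measured were at least 2-fold higher and 0 lower, whereas of the 9706 genes measured 9.9% were higher and 20.8% lower, and the median log2 ratio was 1.59 over the factors and -0.20 over all genes. Of the injured cells 162 lay in a cluster led by Thbs4, Angptl7 and Lox, and of the uninjured cells 447 lay in a cluster led by Cilp2, Chad and Kera. Nhp2 had 326 CPM injured and 47.0 CPM uninjured (6.95, 5.68 to 8.57) and Ddx21 had 115 CPM injured and 18.6 CPM uninjured (6.20, 4.48 to 8.76). Polr1a was the lowest, with 9.93 CPM injured and 11.8 CPM uninjured, a ratio of 0.839 (0.453 to 1.53) whose interval holds 1.

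In pericyte and smooth muscle-like cells, which shared 1 cluster, 31 of the 40 factors measured were at least 2-fold higher and 0 lower, whereas of the 7538 genes measured 20.5% were higher and 12.7% lower. The cluster of this class was led by Cnn1, Acta2 and Myh11. Another cluster, led by Kcnj8, Abcc9 and Casq2 (14 injured and 209 uninjured cells), matched pericyte and smooth muscle markers best and endothelial markers next. It was called mixed and is not part of this class. The median log2 ratio of the class was 1.39 over the factors and 0.15 over all genes. Rrp9 had the highest ratio, with 74 injured and 3 uninjured UMIs (8.23, 2.71 to 40.8), and Nhp2 the next, with 300 CPM injured and 55.0 CPM uninjured. The wide intervals come from 782 factor UMIs in 104 uninjured cells. With each cell thinned to 1800 UMIs 13 of 19 factors measured were higher, and the share of all genes after thinning is not given here.

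In monocyte and macrophage-like cells 20 of 43 factors were at least 2-fold higher and 0 lower, whereas of the 10289 genes measured 8.09% were higher and 25.9% lower, and the median log2 ratio was 0.98 over the factors and -0.15 over all genes. Only 82 uninjured cells with 438 factor UMIs stand against 2731 injured cells with 57996. Of the 43 factors 12 had under 3 uninjured UMIs, and with each cell thinned to 1800 UMIs 10 of 42 were higher. The share of all genes after thinning is not given here. Gnl3 had 75.8 CPM injured and 13.2 CPM uninjured, a ratio of 5.73 (2.23 to 21.04). Nolc1, a chaperone of snoRNPs, had 2 uninjured UMIs and a ratio of 6.97 (1.92 to 57.6). Mrto4, a ribosomal stalk assembly factor, had 55.7 CPM injured and 13.2 CPM uninjured, a ratio of 4.21 (1.64 to 15.5), and Ltv1, a pre-40S factor, 3.90 (1.33 to 19.0).

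Npm1 and Fbl, the most counted of their roles, were within 2-fold in this class. Npm1 had 547 CPM injured and 318 CPM uninjured, a ratio of 1.72 (1.41 to 2.13), and Fbl had 168 CPM injured and 89.4 CPM uninjured, a ratio of 1.88 (1.29 to 2.86). Ebna1bp2 had 120 CPM injured and 49.7 CPM uninjured, a ratio of 2.42 (1.47 to 4.33), and Nhp2 had 205 CPM injured and 56.3 CPM uninjured, the ratio of 3.64 given above. All 3 polymerase I subunits were below 1, with Polr1c at 0.627 (0.377 to 1.13), Polr1a at 0.709 (0.300 to 2.20) and Polr1b at 0.909 (0.157 to 36.5), and each interval holds 1. Within the Retnla cluster alone the log2 ratio of Polr1c was 0.09. Summed, they had 45.9 CPM injured and 69.5 CPM uninjured, a ratio of 0.660 (0.429 to 1.07).

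The uninjured cells of this class lay almost all in a cluster led by Cd209f, Retnla and Cd209g (70 of 82), while the injured ones were spread over clusters led by Arg1 and Spp1 (1213 cells), by Hp and Ifitm6 (692 cells) and others. Within the Retnla cluster, which also held 47 injured cells, the factors had 4441 CPM injured and 1503 CPM uninjured, a ratio of 2.95 (2.65 to 3.31), and 21 of the 25 factors measured were at least 2-fold higher, against 18.6% of the 3772 genes measured in it. The other injured clusters were lower: 2430 CPM in the Hp and Ifitm6 cluster, 2866 in the C1q cluster, 2895 in the Arg1 and Spp1 cluster and 3229 in the Gdf15 cluster. The uninjured library had under 20 cells in each of those 4, so no ratio was formed for them.

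Glial-like cells were added as a comparison after the data were seen, and 37 of the 38 factors measured were at least 2-fold higher and 0 lower, whereas of the 6432 genes measured 13.2% were higher and 27.5% lower. Within the class, the cluster led by Col20a1 and Bche had 10831 CPM in 39 injured cells and 1936 CPM in 148 uninjured cells, and the other glial-like cluster 2532 CPM in 23 injured cells and 1569 CPM in 103 uninjured cells. The class ratio of 4.97 thus rests on 39 injured cells of 1 cluster. The Col20a1 cluster was the highest of all clusters in the injured library, above the FAP-like cluster at 8902 CPM. In dendritic-like cells, also added afterwards, 11 of the 41 factors measured were at least 2-fold higher and 0 lower, whereas of the 6562 genes measured 10.3% were higher and 12.2% lower. Those cells are 1 cluster in which 4 of 11 dendritic markers were present, and its leading genes include Klrd1 and Klrk1, known from natural killer cells, beside Cd209a and Ccr7.

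Of the 43 factors 40 could be measured in all 5 main classes, and 17 were at least 2-fold higher in every one of them, against 1.85% of the 6706 genes measured in all 5. These were Ddx21, Mybbp1a, Nolc1, Nop56, Nop58, Rrp9, Nhp2, Gar1, Nop14, Bop1, Ebna1bp2, Nop16, Rrs1, Mrto4, Nip7, Ftsj3 and Gnl3. Another 12 were higher in 4 classes, 9 in 3, 2 in 2, 2 in 1 and 1 in none. The 5 factors higher in at most 2 classes were Polr1b, Polr1c, Nop10, Wdr43 and Ddx18. This tally takes in all 43 factors, and a class in which a factor was not measured counts as not higher. Polr1b was measured in 3 of the 5 classes, and Noc4l and Rrp12 in 4. Of the 40 factors measured in all 5 classes, FAP-like cells had the largest ratio for 30 and monocyte and macrophage-like cells the smallest for 22. The same counts over all genes are not given here. They are therefore not read as particular to the factors. In monocyte and macrophage-like cells 12 of the 43 factors had under 3 uninjured UMIs. With each cell thinned to 1800 UMIs, 10 factors were at least 2-fold higher in that class and 13 in pericyte and smooth muscle-like cells. The list of 17 therefore holds at full depth only.

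**Figure D4:**
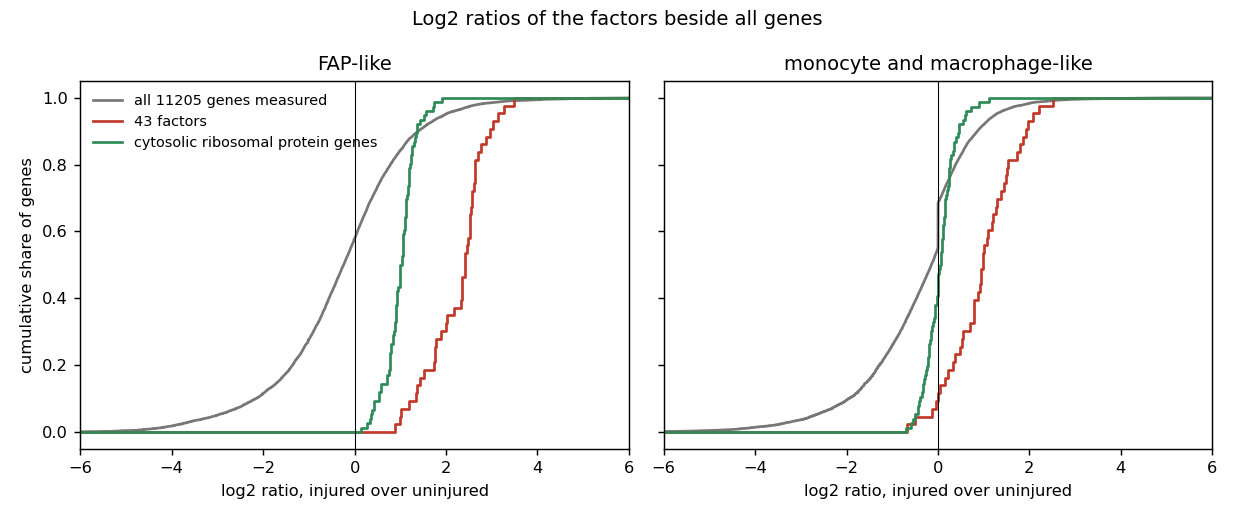
Cumulative share of genes (y axis) by log2 ratio of injured over uninjured CPM (x axis) for all genes measured (grey), the 43 factors (red) and cytosolic ribosomal protein genes (green), in FAP-like cells (left) and monocyte and macrophage-like cells (right). The factors lie right of all genes in both panels, with a median of 2.41 on the left and 0.98 on the right; the step at 0 on the right is made by genes set to the floor of 3 UMIs.

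Ltv1 and Tsr1 are among the 38 factors with a promoter window in RefSeq (build GRCm38.p6, 250 bases before to 50 after the gene's start), and some of these windows hold short words named after transcription factors. Of 4 words searched, these windows held the MYC-type E-box CACGTG and the ETS-type word CCGGAAGT, both searched on either strand; an NRF1 word and another palindrome of 10 bases each had 0 matches in the windows of the 38 genes (42 windows, since some genes have more than 1). The E-box was found in 7 of 38 factors (18.4%) and CCGGAAGT in 11 of 38 (28.9%). Over 27025 genes with a window the shares were 8.09% and 4.31%, and over the 17492 protein-coding ones 8.91% and 5.69%. Ltv1 and Tsr1 hold both words. A match is a description of letters and not a binding site. Shown are all 7 E-box runs and 6 ETS runs, chosen to include the factor with the highest and the one with the lowest FAP-like ratio (Nhp2 and Polr1c). Each is 30 bases read 5′ to 3′ on the gene's strand, with the word in capitals.
Ltv1, E-box, chr10:13193092-13193121, minus strand: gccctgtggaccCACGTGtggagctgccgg
Mybbp1a, E-box, chr11:72441347-72441376, plus strand: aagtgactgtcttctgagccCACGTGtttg
Nop2, E-box, chr6:125131811-125131840, plus strand: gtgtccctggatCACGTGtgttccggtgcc
Pes1, E-box, chr11:3963965-3963994, plus strand: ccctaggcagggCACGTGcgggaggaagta
Tsr1, E-box, chr11:74898092-74898121, plus strand: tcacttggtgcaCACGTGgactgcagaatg
Utp20, E-box, chr10:88826765-88826794, minus strand: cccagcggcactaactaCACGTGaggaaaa
Wdr43, E-box, chr17:71616220-71616249, plus strand: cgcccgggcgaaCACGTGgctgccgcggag
Nhp2, ETS, chr11:51619739-51619768, plus strand: cacttgaaaacCCGGAAGTgatgtcggagg
Noc2l, ETS, chr4:156236002-156236031, plus strand: gcattctgggcCCGGAAGTgcggcgcacgc
Ebna1bp2, ETS, chr4:118620785-118620814, plus strand: caacgagaaaaCCGGAAGTgcggctatgaa
Ltv1, ETS, chr10:13193217-13193246, minus strand: agccccacctcCCGGAAGTccccgggaagg
Tsr1, ETS, chr11:74898068-74898097, plus strand: ctcgggtccgcCCGGAAGTagagttcactt
Polr1c, ETS, chr17:46248069-46248098, minus strand: ccacttgacgtCCGGAAGTgaaggacgtgg
The E-box lay downstream of the RefSeq start in 6 of the 7 genes and upstream, 60 bases before it, in Nop2. Of the 12 CCGGAAGT sites 10 lay upstream. Both Nhp2 and Polr1c carry the word, at 23 and 42 bases upstream. A link between either word and the ratios was not tested.

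Myc, a transcription factor known to drive ribosome biogenesis genes, was itself counted in every class. It had 61.0 CPM injured and 7.14 CPM uninjured in endothelial-like cells, a ratio of 8.55 (6.47 to 11.4), and 102 CPM injured and 19.9 CPM uninjured in tenocyte-like cells, a ratio of 5.12 (3.72 to 7.17). FAP-like cells had 71.4 CPM injured and 34.5 CPM uninjured, a ratio of 2.07 (1.67 to 2.57). Monocyte and macrophage-like cells had 10.8 CPM injured and 19.9 CPM uninjured, on 6 uninjured UMIs, a ratio of 0.544 (0.246 to 1.498). Glial-like cells had a Myc ratio of 3.25 (1.84 to 5.89) and pericyte and smooth muscle-like cells 2.19 (1.08 to 5.02). In dendritic-like cells, on 6 uninjured UMIs, it was 0.712 (0.292 to 2.09). A link between the Myc ratios and the factor ratios was not tested. Of all genes measured in FAP-like cells 15.7% were at least 2-fold higher and 27.7% at least 2-fold lower. Of the 9 measured genes of the MYC family and its partners there, 2 were higher and 3 were lower. Those lower were Mxd4 at 41.0 CPM injured and 176 CPM uninjured, Mxi1 at 7.91 CPM injured and 22.6 CPM uninjured, and Mnt at 6.98 CPM injured and 15.4 CPM uninjured, all repressor partners of MAX. For Mnt the log2 ratio was 0.028 when cells were thinned to 1800 UMIs. In monocyte and macrophage-like cells Mxd1 was 7.82-fold (3.35 to 24.1) and Mxi1 5.63-fold (1.55 to 46.5) higher, and Mxd4 was 6.05-fold (3.72 to 9.37) lower.

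Of the pathway genes outside the 43, Pak1ip1, a large subunit factor, was 3.97-fold (1.70 to 12.3) higher in monocyte and macrophage-like cells. Lower there were the polymerase I transcription factor subunits Taf1b, 4.41-fold (1.97 to 8.62), and Taf1c, 4.28-fold (0.853 to 13.3), and the small subunit factors Tsr2, 2.96-fold (1.07 to 6.61), and Rrp36, 2.26-fold (0.963 to 4.52). Each rests on 9 or fewer uninjured UMIs.

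Cell cycle genes moved with the factors in FAP-like cells. Of the 20 listed, 19 were at least 2-fold higher there, with a median log2 ratio of 3.29, and the largest ratios were those of the replication helicase subunits Mcm5 and Mcm2 (74.6 CPM injured and 1.26 CPM uninjured for Mcm5) and of Top2a. In monocyte and macrophage-like cells 0 of 12 measured were higher, and 2, Mcm5 and Tyms, were at least 2-fold lower on 3 and 2 uninjured UMIs, although Mcm5 was higher within the Retnla cluster alone (log2 2.02). FAP-like cells drawn to 1800 UMIs and without a cell cycle UMI among them had 6910 CPM (6637 to 7191) of the factors in 194 injured cells and 1571 CPM (1499 to 1645) in 637 uninjured cells. Those with such a UMI had 9205 CPM in 204 injured cells and 1639 CPM in 101 uninjured cells. In endothelial-like cells the injured level was 5702 CPM in cells with a cell cycle UMI and 5584 CPM in those without, in tenocyte-like cells 5544 and 4444 CPM, and in glial-like cells 9213 CPM in 24 cells and 4971 CPM in 38. No cell cycle UMI among 1800 does not make a cell one that is not cycling. With every FAP-like cell that had a cell cycle UMI at full depth left out, 53 injured and 531 uninjured cells were left, at 5002 CPM injured and 1598 CPM uninjured. Then 32 of 39 factors measured were at least 2-fold higher, against 8.47% of all genes measured, with a median log2 ratio of 1.67. The part of cycling cells in the FAP-like result was not tested.

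The cell-by-cell picture was taken after drawing 1800 UMIs from each cell, since the libraries differed in depth. FAP-like cells then had a median of 14 factor UMIs (quartiles 8 to 20) injured and 3 (2 to 4) uninjured. At least 10 factor UMIs were found in 67.8% of injured and 0.271% of uninjured FAP-like cells. Endothelial-like cells had a median of 10 (6 to 14) injured and 3 uninjured, with 51.7% injured and 0.227% uninjured at 10 or more. Monocyte and macrophage-like cells had a median of 5 (3 to 7) injured and 3 uninjured. The quartile ranges of the libraries did not overlap in FAP-like and endothelial-like cells and did in monocyte and macrophage-like cells. Injured glial-like cells were the most spread out, with a median of 8.5 and quartiles of 4 and 17.75.

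**Figure D5:**
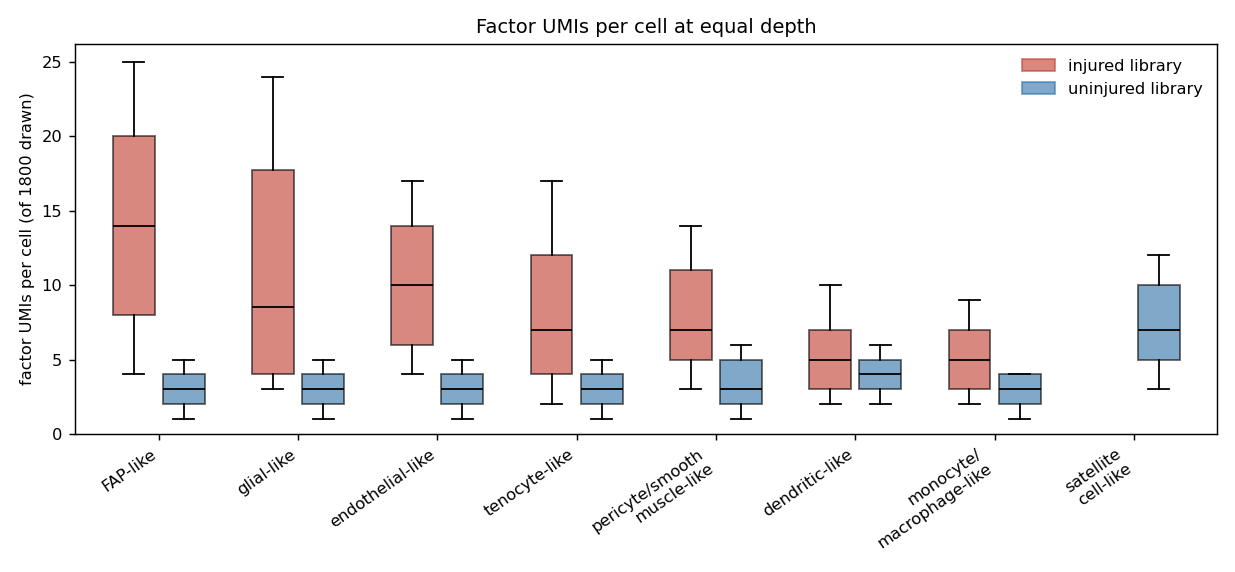
Factor UMIs per cell after drawing 1800 UMIs from each cell (y axis) by cell class (x axis), injured in red on the left and uninjured in blue on the right; boxes show quartiles and the median, whiskers the 10th and 90th percentiles. The FAP-like median is 14 in injured cells and 3 in uninjured cells, and satellite cell-like cells, present in the uninjured library only, stand at 7.

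Among single factors, Ncl was found in 78.6% (74.3 to 82.6) of injured and 26.8% (23.7 to 30.2) of uninjured FAP-like cells at 1800 UMIs. Without thinning the shares were 96.0% and 47.0%, at median depths of 14149 and 4015 UMIs. In erythroid-like cells, the red cell lineage, the thinned Ncl share was 27.6% in 29 injured and 14.7% in 109 uninjured cells, at median depths of 6829 and 6008 UMIs. Haemoglobin took 47.6% of the erythroid-like UMIs injured and 72.8% uninjured, and of their other UMIs the factors had 3835 CPM injured and 1606 CPM uninjured, so these cells give no level for a class without the factors. Without such a level, how much of the uninjured FAP-like share of 26.8% is expression by these cells cannot be told.

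Satellite cell-like cells, the muscle stem cells, had the highest factor level of any class in the uninjured library. Their 248 cells were led by Pax7, Myf5 and Cdh15 and came from the uninjured library alone, so they had no injured counterpart. The summed level was 4245 CPM in satellite cell-like cells and 1674 CPM in the other uninjured cells, a ratio of 2.54 (2.45 to 2.62). Of the 43 factors 27 were at least 2-fold higher in them and 0 lower, against 8.24% of the 13332 genes measured. Rrp12 (5.17, 1.74 to 12.8), Gnl3 (4.48, 3.57 to 5.57) and Fbl (4.21, 3.61 to 4.90) had the highest ratios and Ddx18 (1.11, 0.805 to 1.49) the lowest. For 38 of the 43 factors satellite cell-like cells had the highest level among uninjured classes. The share of all genes with their highest uninjured level in that class is not given here. That count is therefore not read as particular to the factors. Resident uninjured satellite cell-like cells stood at 4245 CPM, below injured tenocyte-like and above injured dendritic-like and monocyte and macrophage-like cells.

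Over all kept cells the summed level was 4496 CPM injured and 1784 CPM uninjured, a ratio of 2.52 (2.49 to 2.55), and 32 of 43 factors were at least 2-fold higher and 0 lower, whereas of the 14472 genes measured 12% were higher and 38.6% lower. Without cells that had a cell cycle UMI the count was 11 of 43, and the share of all genes in that setting is not given here. Here the mix of classes also differed, since monocyte and macrophage-like cells made up 64.1% of injured and 1.60% of uninjured cells and endothelial-like cells 10.8% of injured and 51.5% of uninjured cells. All-cell ratios and class ratios are therefore not interchangeable.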

How the data were processed

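The authors deposited 10x matrices of raw UMI counts per gene and barcode for the 2 libraries; per the submitters' processing notes they were made with Cell Ranger 2.1.1 on mm10. From these counts, barcodes with under 200 genes or over 20% mitochondrial UMIs were left out. Scrublet's own threshold marked 1 barcode in each library, so the top scores were removed at 0.8% per 1000 barcodes (161 injured and 249 uninjured). Cells were clustered with scanpy 1.11.5 and Leiden at resolution 1 into 26 clusters on 2000 variable genes, without the 43 factors, the other pathway, cell cycle and MYC family genes. Clusters were named from at least 3 present markers, and 2 were called mixed and 1 left unnamed; the exact naming rule was set after seeing the data. UMIs were summed per class and library as CPM, with exact Poisson and conditional binomial 95% intervals, and genes with at least 20 UMIs over both libraries were measured. These 3′ counts carry no length term, so levels are not compared between genes except as counts. The ratio and its interval were tested on counts simulated with counting error alone. That test does not cover spread between cells or animals.

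The named factors are those with the most UMIs of each role and the 3 highest and 3 lowest ratios of each class, with context genes by the same kind of rule in FAP-like and monocyte and macrophage-like cells; a few others were named for their role. Members and lists were chosen with earlier results of these data known. All 43 gene IDs matched GENCODE M21 (GRCm38) as protein-coding genes; Mrto4 has 2 annotated pseudogenes named after it, which could share its reads. Glial-like and dendritic-like classes were added after seeing the data, and the dendritic-like name rests on 4 of 11 markers. Alternatives changed the doublet step, depth, filter, scaling, class assignment and cycling cells.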

Additional observations from a re-analysis of the deposited data

How the results depend on the processing

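The count of factors at least 2-fold higher stayed within 1.5 times its value under 71 of 74 alternatives, and the factors' median log2 ratio stayed above 0 under all 74. Values moved more: summed levels moved past their counting interval under 49 of 136 alternatives, and medians under 7 of 74 and single genes under 116 of 976 moved as well. The injured FAP-like level of 8887 CPM was 5002 CPM without cells that had a cell cycle UMI, 5849 CPM with cells classed by their own marker scores and 13201 CPM with totals that leave out haemoglobin, mitochondrial and ribosomal protein genes. There were 3 exceptions. With each cell thinned to 1800 UMIs, 10 of 42 factors measured were higher in monocyte and macrophage-like cells. In pericyte and smooth muscle-like cells the thinned count was 13 of 19. Over all cells it was 11 of 43 when cells with a cell cycle UMI were left out. The shares of all genes under these settings are not given here. Thinning leaves fewer UMIs to measure. In monocyte and macrophage-like cells the factors' median log2 ratio was 0.57 when thinned and 0.98 at full depth. The cause was not tested for any of the 3 exceptions. Over the alternatives the counts ran from 32 to 43 in FAP-like, 31 to 40 in endothelial-like, 27 to 36 in tenocyte-like, 13 to 33 in pericyte and smooth muscle-like and 10 to 22 in monocyte and macrophage-like cells. No factor called here changed direction, and Polr1b in endothelial-like cells, which was not called, was lower at a log2 ratio of -1.13 when cells were classed by their own marker scores. Of the context genes, the log2 ratio of Mcm5 in monocyte and macrophage-like cells turned to 2.02 within the Retnla Cd163 cluster alone, an alternative chosen after seeing the data, and that of Mnt in FAP-like cells to 0.028 when thinned; the cause was not tested. Size factors in place of total UMIs moved the median of all genes in FAP-like cells from -0.24 to -0.02. Some alternatives left a class with under 50 cells and gave no value, among them the removal of cells with a cell cycle UMI from monocyte and macrophage-like, tenocyte-like and pericyte and smooth muscle-like cells. No paired analysis was possible because each condition has 1 library.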
